A study of Homo sapiens with 4 samples.

Results

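The zinc finger genes of chromosome 19 were examined for occupancy by ZNF217, itself a zinc finger transcription factor. They were taken as all protein-coding GENCODE 44 genes of the chromosome whose symbol is ZNF followed by digits alone, which gave 240 of 19970 protein-coding genes on chromosomes 1 to 22 and X. ZNF217 had been mapped by CUT&Tag, in which an antibody tethers a transposase that tags the DNA around its target, in untreated MV4-11 and U937 cells. Both are human myeloid leukemia cell lines with monocytic features, and MV4-11 carries a fusion of KMT2A and U937 one of PICALM. Each line had 1 ZNF217 library, and the IgG sample of each line is not analysed here. The deposited lists held 37635 peaks in MV4-11 and 22521 in U937, as hg38 positions alone, with neither peak height nor read count, so that depth is unknown and a difference between the lines has no replicate check. Shares are given with exact (Clopper-Pearson) 95% intervals, which cover counting error alone.

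Most ZNF genes of this chromosome belong to the KRAB family, which grew by repeated tandem duplication and lies in clusters of near relatives. A KRAB protein binds DNA, often a retroelement, through an array of C2H2 fingers and recruits TRIM28, which brings in SETDB1, heterochromatin protein 1 and histone deacetylases. The finger array is usually encoded by a single long last exon, and the 3′ ends of these genes are known to carry repressive H3K9 methylation in many cell types. The label was checked against the coding sequences. All 240 members held at least 1 finger pattern (2 cysteines 2 to 4 residues apart, a loop of 12 residues and 2 histidines 3 to 5 residues apart). The 3004 fingers lay in the last exon in 98.5% of cases, and 234 members had every finger there. The median member had 12 fingers, and the number ran from 1 to 36. The check covered fingers alone. Which members carry a KRAB domain was not determined, so the results below hold for ZNF genes and not for KRAB genes as such.

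ZNF217 peaks were found at the start of fewer ZNF genes than of their neighbours. A promoter peak, one that reached within 1 kb of any annotated transcription start site (TSS), was present at 111 of the 240 ZNF genes in MV4-11, or 46.3% (39.8 to 52.8). In U937 the count was 93, or 38.8% (32.6 to 45.2). The shares over all protein-coding genes were 59.0% and 50.5%. The 1236 other genes of chromosome 19 stood at 72.0% (69.4 to 74.5) and 56.6% (53.8 to 59.4), and the 236 ZNF genes of other chromosomes at 71.6% and 65.3%. In both lines the interval of the chromosome 19 ZNF genes therefore lay below those of the other genes of the chromosome and of ZNF genes elsewhere. The intervals treat genes as independent, although many members are near relatives that lie side by side. In MV4-11 7 distinct peaks, and in U937 6, lay in the windows of more than 1 member. The intervals here and below may therefore be too narrow. The member peaks sat close to the start. Windows of 500 bp, 1 kb and 3 kb on each side gave the same 111 and 93 members, while the counts of the other genes rose from 858 to 950 (MV4-11) and from 667 to 777 (U937). With the MV4-11 list reduced to its 21737 widest peaks, as many as U937 had on these chromosomes, MV4-11 peaks reached 90 members, so the order of the lines depended on the length of the lists.

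ZNF promoters occupied in U937 were less often also occupied in MV4-11 than those of other genes. Peaks were present in both lines at 74 members (30.8%, against 47.4% of all genes), in MV4-11 alone at 37 (15.4%, against 11.6%), in U937 alone at 19 (7.92%, against 3.10%) and in neither line at 110 (45.8%, against 37.9%). With lists of equal length 67 members had peaks in both lines, of 90 in MV4-11 and 93 in U937. U937-only members then outnumbered MV4-11-only ones, so the order of these classes also depended on the length of the lists. Of the members with a U937 peak, 79.6% (69.9 to 87.2) also had one in MV4-11, while 96.7% (95.1 to 97.9) of the other U937-occupied genes of chromosome 19 did. U937-only promoters thus made up a larger share of the ZNF genes (4.83 to 12.1%) than of the other genes, of which 23 were in this class (1.18 to 2.78%). The reverse share, of MV4-11-occupied members that also had a U937 peak, was 66.7% (57.1 to 75.3), against 76.1% (73.1 to 78.8) of the other genes. These last intervals overlapped. Over all protein-coding genes the share of U937-occupied genes also occupied in MV4-11 was 93.9% (93.4 to 94.3), and the reverse share was 80.4% (79.7 to 81.1). The members' intervals lay below both. For ZNF genes of other chromosomes the reverse share was 84.6% (78.3 to 89.7), also apart from that of the members.

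**Figure D1:**
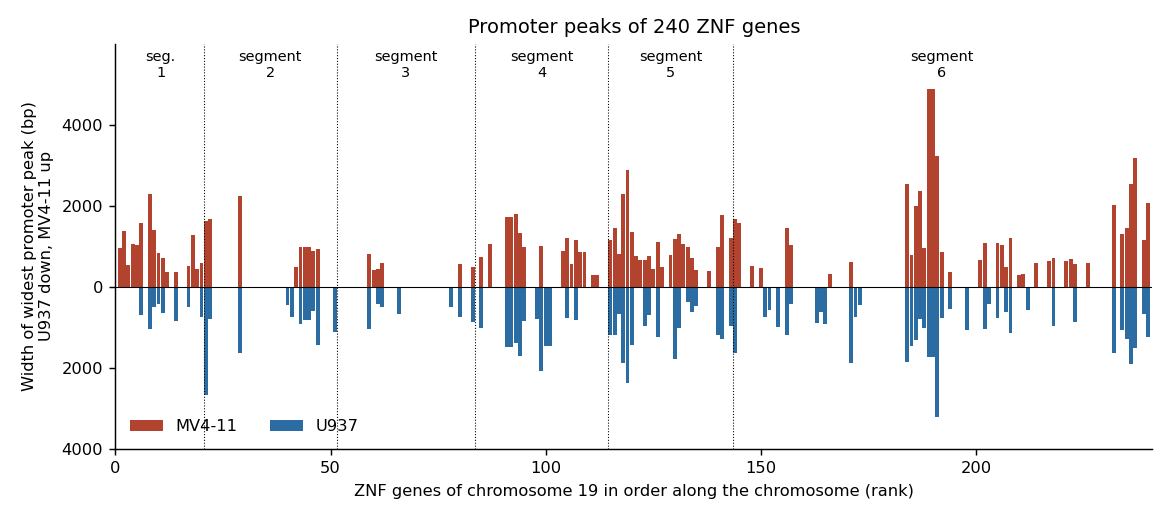
Width in bp of the widest ZNF217 promoter peak of each of the 240 ZNF genes, ranked along chromosome 19, with MV4-11 drawn upward and U937 downward and dotted lines between the 10 Mb segments. Peaks crowd in some neighbourhoods, such as the tall bars of segment 6 that reach 4888 bp, and long stretches of segments 2, 3 and 6 hold no bar in either line.

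Occupied and unoccupied members lay in runs along the chromosome. Segments of 10 Mb were counted from the short arm tip, and a gene was placed by its midpoint. Segment 3 (20 to 30 Mb), which flanks the centromere and holds 32 ZNF genes but only 10 other protein-coding genes, had the lowest shares, 6 members (18.8%, 7.21 to 36.4) in MV4-11 and 7 (21.9%, 9.28 to 39.97) in U937. Segment 5 (40 to 50 Mb) had the highest, 24 of 29 (82.8%, 64.2 to 94.2) and 17 of 29 (58.6%, 38.9 to 76.5). With lists of equal length the segment 3 count in MV4-11 was 3 (9.38%). The intervals of segments 3 and 5 did not overlap in MV4-11 and overlapped narrowly in U937.

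Segment 1 (0 to 10 Mb) was the one in which the lines differed most. There 16 of 20 members had an MV4-11 peak and 8 had a U937 peak, all 8 of them also occupied in MV4-11. With lists of equal length the MV4-11 count was 12. Segment 2 (10 to 20 Mb) held peaks at 9 of 31 members in MV4-11 (29.0%, 14.2 to 48.0) and 11 in U937 (35.5%, 19.2 to 54.6), while its 282 other genes had peaks in 80.5% (75.4 to 85.0) and 67.0% (61.2 to 72.5). The ZNF genes of this segment stood below their neighbours with separate intervals in both lines. In segment 4 (30 to 40 Mb) the counts were 16 and 12 of 31. In segment 6 (50 Mb to the end), which holds 97 members, they were 40 (41.2%, 31.3 to 51.7) and 38 (39.2%, 29.4 to 49.6). The 202 other genes of segment 6 had peaks in 51.5% (44.4 to 58.6) and 36.6% (29.98 to 43.7), so that in this segment the intervals of ZNF genes and neighbours overlapped in both lines. The same was true of segments 1, 4 and 5 in each line, with 79.1 and 61.5% of the other genes occupied in segment 1, 67.7 and 48.8% in segment 4, and 74.1 and 60% in segment 5. Segment 3 had too few other genes to place them, 6 of 10 in each line (26.2 to 87.8%).

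**Figure D2:**
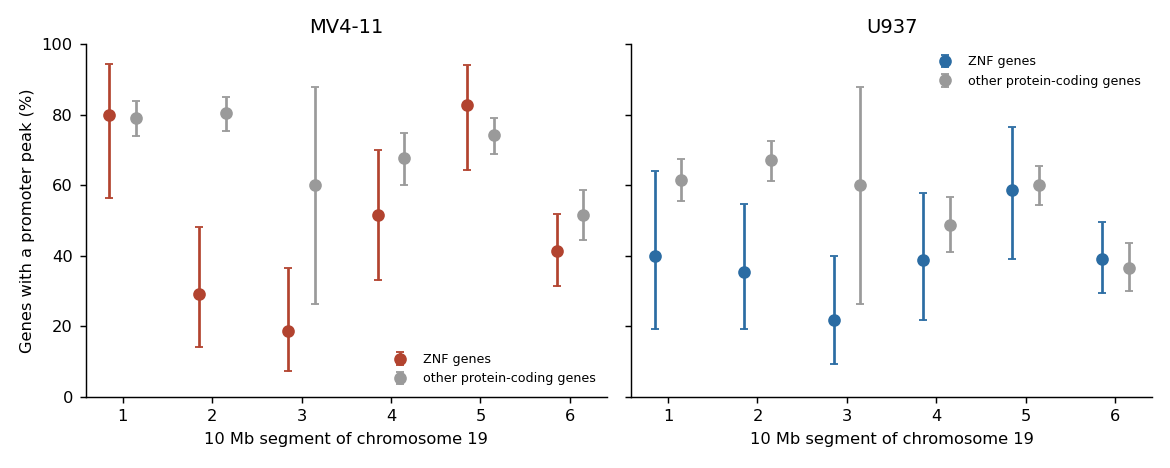
Share in % of ZNF genes (coloured) and of other protein-coding genes (grey) with a ZNF217 promoter peak in each 10 Mb segment of chromosome 19, with exact 95% intervals, for MV4-11 and U937. ZNF genes lie below their neighbours with separate intervals in segment 2 of both lines, and the ZNF shares are lowest in segment 3.

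The longest stretch without a peak in either line was 11 neighbouring ZNF genes of segment 3, from ZNF43 to ZNF730 (chr19:21804946-23147221), which included ZNF208, ZNF257, ZNF676, ZNF729, ZNF98, ZNF492, ZNF99, ZNF723 and ZNF728. Another 7 neighbours of the same region, from ZNF682 to ZNF85 (chr19:19997058-20950697), were also without one. ZNF91, a repressor of SVA retrotransposons, had no peak either, while ZNF93, which represses LINE-1 elements, had a promoter peak of 1125 bp in U937 alone. Runs of 10 were found in segment 2, from ZNF763 to ZNF442 (chr19:11965037-12365905), and in segment 6, from ZNF415 to ZNF331 (chr19:53107879-53580269), the last of these being an imprinted gene. Of the 5 members with the most fingers, ZNF208 (36), ZNF729 (34), ZNF91 (31) and ZNF845 (26) had no peak, and ZNF850 (29) had a peak in each line, 1017 bp wide in MV4-11 and 2077 in U937.

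The longest run of members with peaks in both lines was 9 genes near the end of the long arm, from ZNF628 to ZNF444 (chr19:55476617-56160893). It held the widest member promoter peak of each line. In MV4-11 a peak of 4888 bp (chr19:55640504-55645392) reached the starts of both ZNF580 and ZNF581, which overlap on the same strand, and the widest U937 peak at these genes measured 1732 bp. In U937 the widest was a 3207 bp peak at ZNF787 (chr19:56118799-56122006), where MV4-11 had one of 3222 bp. Shorter runs with a peak included 6 genes from ZNF546 to ZNF428 in segment 5, occupied in both lines, and 5 neighbours from ZNF554 to ZNF77 in segment 1 (chr19:2819868-2944971), all occupied in MV4-11 and none in U937. Ranked by the summed width of the widest peak of each line, the first members occupied in both lines were ZNF414 (2289 bp in MV4-11 and 1039 bp in U937), ZNF557 (1568 and 690 bp) and ZNF558 (1402 and 502 bp) in segment 1. In segment 2 they were ZNF653 (1630 and 2677 bp), ZNF700 (2234 and 1624 bp) and ZNF627 (1682 and 790 bp). In segment 3 they were ZNF430 (804 and 1036 bp), ZNF254 (479 and 866 bp) and ZNF675 (568 and 740 bp). No member of segment 3 thus had an MV4-11 promoter peak wider than 804 bp. In segment 4 ZNF565 and ZNF146, transcribed away from each other, shared 1 peak (1717 bp in MV4-11, 1484 bp in U937), followed by ZNF566 (1788 and 1393 bp). In segment 5 they were ZNF576 (2894 and 2372 bp), ZNF575 (2298 and 1871 bp) and ZNF296 (1772 and 1294 bp).

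Promoter peaks found in 1 line alone had smaller median widths than those of members occupied in both, and most segments gave examples. Those of MV4-11 were widest at ZNF555 (1383 bp), ZNF561 (1271 bp) and ZNF57 (1051 bp) in segment 1, at ZNF181 (1066 bp), ZNF420 (898 bp) and ZNF569 (870 bp) in segment 4, at ZNF234 (1047 bp), ZNF284 (776 bp) and ZNF283 (760 bp) in segment 5, and at ZNF175 (1572 bp), ZNF548 (1031 bp) and ZNF586 (694 bp) in segment 6. Segments 2 and 3 had 1 such member each, ZNF709 (502 bp) and ZNF714 (408 bp). Those of U937 were ZNF93, ZNF443 (749 bp) and ZNF799 (447 bp) in segment 2, ZNF100 (663 bp) and ZNF724 (486 bp) in segment 3, and ZNF790 and ZNF345, which shared a peak of 1459 bp, and ZNF567 (805 bp) in segment 4. In segment 6 the U937-only peaks were widest at ZNF71 (1066 bp), ZNF616 (995 bp) and ZNF83 (924 bp). Segments 1 and 5 had no U937-only member. Among the longest members of their segments without a promoter peak in either line were ZNF560, ZNF177 and ZNF426 in segment 1, and ZNF44, ZNF20 and ZNF506 in segment 2. Others were ZNF568 and ZNF573 in segment 4, ZNF541, ZNF112 and ZNF229 in segment 5, and ZNF578 in segment 6. Of these, ZNF541 had gene body peaks in MV4-11 (chr19:47521907-47522329 and chr19:47529533-47529940).

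Where a member promoter had a peak, it was of ordinary width. The 127 distinct promoter peaks of MV4-11 had a median width of 870 bp (284 to 4888), and the 101 of U937 a median of 857 bp (376 to 3207), and the promoter peaks of all protein-coding genes had medians of 874 and 864 bp. About the same was true of the other genes of the chromosome, with 852 and 796 bp. The median was 980 bp in MV4-11 and 914 bp in U937 at members occupied in both lines, 599 bp at MV4-11-only members and 752 bp at U937-only members. Most peaks lay on a start, since 89.6% of the pairs of member and peak in MV4-11 and 90.7% in U937 covered a TSS, and the median distance from the peak midpoint to the nearest TSS was -3 bp in MV4-11 and 24 bp in U937 (downstream positive). At all 74 members occupied in both lines a peak of one line overlapped a peak of the other. The widest peak was wider in MV4-11 at 50 of them, with a median ratio of 1.16 over the 74. The ratio ran from 0.328 at ZNF888 (616 bp in MV4-11 and 1878 bp in U937) to 2.99 at ZNF865 (2377 and 794 bp), both named for these extremes after the values were seen. Of the U937 member promoter peaks 80.2% (71.1 to 87.5) overlapped an MV4-11 peak, and of the MV4-11 ones 60.6% (51.6 to 69.2) overlapped a U937 peak. For the other genes of chromosome 19 these shares were 88.4% (86.1 to 90.5) and 46.8% (44.3 to 49.3). Over all protein-coding genes they were 87.0% and 62.6%, each inside the interval of the members. Counted by peak, MV4-11 peaks at ZNF promoters were thus shared at a higher share than those at other promoters of chromosome 19, with separate intervals. That is opposite in direction to the count by gene. The share at ZNF promoters was near that of all genes, and the share at the other promoters of the chromosome was the lower one.

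The sequence of the start regions differed along the chromosome. The following are 300 bases of the promoters of ZNF787, with the widest U937 peak, of ZNF430, with peaks in both lines in segment 3, and of ZNF208, without a peak in the same segment. They run 5′ to 3′ in the direction of the gene from 250 bases before to 50 after the start, with CG dinucleotides in capitals, and come from RefSeq (GRCh38.p14) at chr19:56121246-56121545 (minus strand), chr19:21020407-21020706 (plus strand) and chr19:22010894-22011193 (minus strand).
ZNF787: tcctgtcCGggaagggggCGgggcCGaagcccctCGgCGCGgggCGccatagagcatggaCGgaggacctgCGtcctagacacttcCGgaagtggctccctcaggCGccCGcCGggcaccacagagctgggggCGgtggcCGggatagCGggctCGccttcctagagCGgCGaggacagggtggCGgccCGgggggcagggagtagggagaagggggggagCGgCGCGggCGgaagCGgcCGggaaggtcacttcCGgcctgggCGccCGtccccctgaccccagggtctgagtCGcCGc
ZNF430: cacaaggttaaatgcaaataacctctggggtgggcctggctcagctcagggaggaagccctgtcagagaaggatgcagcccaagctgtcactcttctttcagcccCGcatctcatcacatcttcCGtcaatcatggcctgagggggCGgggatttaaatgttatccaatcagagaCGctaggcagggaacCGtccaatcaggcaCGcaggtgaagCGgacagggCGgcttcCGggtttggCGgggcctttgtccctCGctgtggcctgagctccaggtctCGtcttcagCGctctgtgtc
ZNF208: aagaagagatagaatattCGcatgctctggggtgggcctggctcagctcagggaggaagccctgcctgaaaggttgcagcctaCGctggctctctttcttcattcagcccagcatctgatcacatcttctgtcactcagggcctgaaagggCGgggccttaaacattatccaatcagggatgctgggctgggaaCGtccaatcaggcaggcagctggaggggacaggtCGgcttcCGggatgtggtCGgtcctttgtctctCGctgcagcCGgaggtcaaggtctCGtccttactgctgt
The ZNF787 stretch held 32 CG dinucleotides at a GC content of 75%. The ZNF430 and ZNF208 stretches held 13 and 10 at 58% and 57%, and they read alike over much of their length, although one gene was occupied and the other was not. The U937 peak of ZNF430 (chr19:21020360-21021396) spanned its stretch. The MV4-11 peak (chr19:21020664-21021468) reached only the 3′ end of it and did not cover the canonical start. Of the 50-base words within 1 kb of that start, 98.1% occurred once on chromosome 19 at ZNF430 and 86.0% at ZNF208. Among the 210 members found in the RefSeq promoter table the median was 20.5 CG in 300 bases, and it was 23 over all 15811 protein-coding promoters there. The 26 members of segment 3 had a median of 10.

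Occupancy was mostly higher in start regions with more CG dinucleotides, among ZNF genes as among other genes, though the rise among ZNF genes was not steady. Within 1 kb of the canonical start the median number of CG dinucleotides was 81.5 in ZNF genes and 94 in the other genes of chromosome 19. It was 92 at members occupied in both lines and 78 at members occupied in neither, a smaller gap than between the 111 and 46 of the other genes. At 60 to 79 CG, 38.3% of 81 ZNF genes (27.7 to 49.7) and 68.8% of 144 other genes (60.5 to 76.2) had an MV4-11 peak, and 28.4% (18.9 to 39.5) and 50% (41.6 to 58.4) had a U937 peak. At 80 to 99 CG the MV4-11 shares were 43.7% of 71 (31.9 to 56.0) and 76.8% of 194 (70.2 to 82.5), and the U937 shares were 39.4% (28.0 to 51.7) and 64.9% (57.8 to 71.6). In both classes and both lines the ZNF interval lay below that of the other genes. At 100 to 119 CG the MV4-11 shares of 60.5% (43.4 to 76.0) and 86.5% (80.6 to 91.2) were also apart, and the U937 shares of 63.2% (46.0 to 78.2) and 69.7% (62.3 to 76.3) overlapped. At 120 CG or more the MV4-11 shares of 70% (45.7 to 88.1) and 92.8% (89.7 to 95.3) were apart. The U937 shares there, 50% (27.2 to 72.8) and 76.6% (71.9 to 80.8), overlapped. The U937 share of ZNF genes was thus lower in this class than at 100 to 119 CG. Below 60 CG the intervals overlapped in both lines. With genes matched on GC content in place of CG number, most classes were not apart. At 55 to 60% GC the ZNF genes lay below with separate intervals in both lines, at 35.7% of 56 (23.4 to 49.6) against 72.8% of 382 (68.0 to 77.2) in MV4-11 and 37.5% (24.9 to 51.5) against 61.3% (56.2 to 66.2) in U937. The shares overlapped at 45 to 50% GC (33.3 against 37.9% in MV4-11, 27.3 against 28.8% in U937), at 50 to 55% (52.7 against 61.0%, 41.8 against 46.3%) and at 60% or more (85% against 86.0%, 70% against 65.4%). Under 45% GC the 7 ZNF genes had the higher share, 4 against 4 of 43 other genes in MV4-11 and 2 against 4 in U937, with overlapping intervals. The gap between ZNF genes and other genes at matched composition thus depended on whether CG number or GC content was matched. CG number did not order the segments, since segment 5, the most occupied, had a median of 71 CG, segment 2 had 92 and segment 3 had 62.

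**Figure D3:**
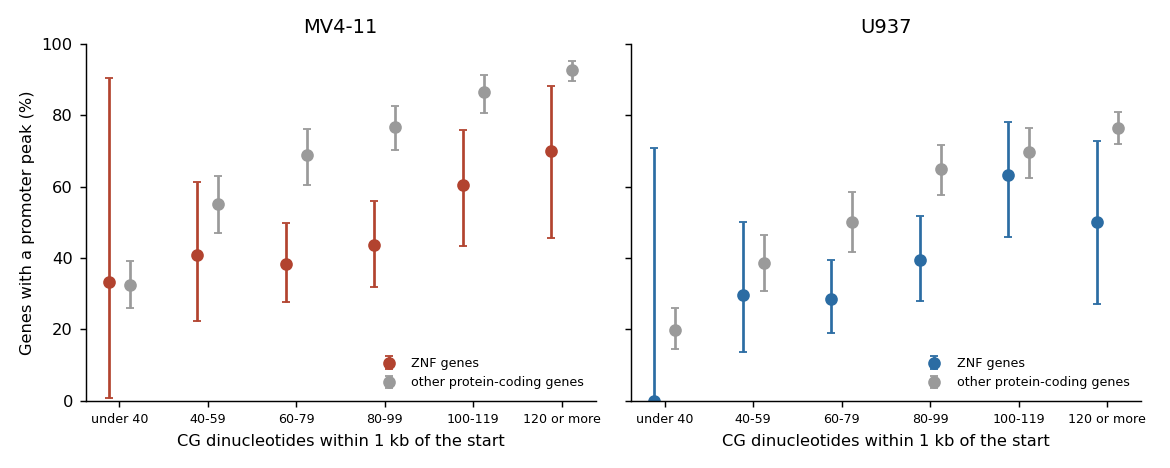
Share in % of ZNF genes (coloured) and of other chromosome 19 genes (grey) with a ZNF217 promoter peak at any start, by the number of CG dinucleotides within 1 kb of the canonical start, with exact 95% intervals. The ZNF shares lie below the others in every class from 40 CG upward in both lines. The intervals are separate from 60 to 99 CG in both lines and from 100 CG upward in MV4-11 alone. The lowest ZNF class holds 3 genes.

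Short core sequences of promoter-binding factors were searched on both strands of the 300-base windows. The core of the ETS family, CCGGAAG, was present in 93 of the 210 members (44.3%, 37.5 to 51.3), in 14.9% of the other chromosome 19 promoters and in 14.6% of all promoters. It was found in 34.3% of the members with peaks in both lines (23.2 to 46.9) and in 50% of those with none (39.4 to 60.6). The core was most frequent in segments 3 and 6, at 21 of 26 and 51 of 84 members. Within segment 3 it was present in 7 of 8 members with a peak in either line and in 14 of 18 without one, and within segment 6 in 26 of 44 and 25 of 40. Its presence therefore did not part occupied from unoccupied members in these clusters. The 30 bases around the core show how alike the clusters are (RefSeq, GRCh38.p14, core in capitals, each read on the strand that holds the reverse complement, CTTCCGG). The first 3 belong to segment 3 members without a peak, the next 3 to segment 3 members with peaks in both lines, and the last 3 to segment 6, of which ZNF616 had a peak in U937.
ZNF43: gaggacagggcggCTTCCGGgatgtggcgg
ZNF208: ggggacaggtcggCTTCCGGgatgtggtcg
ZNF492: gcggaaagggcggCTTCCGGgatgtggcgg
ZNF430: gcggacagggcggCTTCCGGgtttggcggg
ZNF254: ctggacaaagcggCTTCCGGgatatggcgg
ZNF675: gcagacaagatggCTTCCGGgatttggcgg
ZNF765: tccacgccgtccgCTTCCGGgtctgcgcga
ZNF845: tccatgcgatccgCTTCCGGgtttgcgcga
ZNF616: ctggcgcaatctgCTTCCGGgagtgacgga
In order, they lie at chr19:21836190-21836219 (minus), chr19:22010946-22010975 (minus), chr19:22634293-22634322 (plus), chr19:21020621-21020650 (plus), chr19:24087156-24087185 (plus), chr19:23687185-23687214 (minus), chr19:53395143-53395172 (minus), chr19:53333743-53333772 (minus) and chr19:52139915-52139944 (plus). In segment 3 the strand is that of the gene and the core lay between 21 bases before the start (ZNF43) and 14 bases after it (ZNF675). In the segment 6 examples the strand is opposite to the gene and the core lay 7 bases after the start. A peak at the promoter did not always span the core. Both ZNF675 peaks did, and at ZNF430 the U937 peak did while the MV4-11 peak began 3′ of it. At ZNF254 the core lay under an MV4-11 peak of 479 bp, and the U937 peak was at another start of the gene. The ZNF616 peak stopped short of it.

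Other cores varied between clusters as well. CCAAT was present in 52.9% of members against 36.3% of all promoters, and in all 26 members of segment 3 and 25 of 28 of segment 2. The TATA box TATAAA was rare, at 1.90% against 9.45%. The GC box GGGCGG was found in 71.0% against 60.9%, the E-box CACGTG in 3.33% against 8.85%, the YY1 core GATGGCG in 6.67% against 5.90% and the NRF1 core GCATGCG in 4.29% against 5.27%. CAGAA, the centre of the known ZNF217 motif, was present in 69.0% of members (62.3 to 75.2) and in 47.7% of all promoters. It was found in 56.7% of members with peaks in both lines (44.04 to 68.8) and in 73.9% of those with none (63.7 to 82.5), so that the core was not more frequent where a peak was called. A GC box can share bases with an ETS core, an ETS core and CAGAA cannot, and each core was counted on its own.

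The uniqueness of the start regions was similar in occupied and unoccupied members. Of all 50-base words within 1 kb of the canonical start, the median member had 99.5% that occurred once on chromosome 19, 99.9% at members occupied in both lines and 98.5% at members occupied in neither. Of the 18 members with under 90% such words, 7 had an MV4-11 peak and 6 a U937 peak, against 104 and 87 of the other 222. These shares, 38.9% (17.3 to 64.3) and 33.3% (13.3 to 59.01) against 46.8% and 39.2%, had overlapping intervals. The lists also held 161 (MV4-11) and 74 (U937) peaks on alternate sequences of chromosome 19. The start of 6 members was also present on such a sequence, and peaks were found there for ZNF430 alone, in both lines. ZNF66, ZNF676, ZNF729 and ZNF85 had a peak neither on the chromosome nor on the alternate.

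Starts shared with another gene had peaks at higher shares than unshared ones, by amounts that depended on the kind of partner. At 68 members an opposite gene of any kind began within 1 kb, and 41 of them (60.3%, 47.7 to 72.0) had an MV4-11 peak, against 70 of the other 172 (40.7%, 33.3 to 48.4). In U937 the counts were 32 (47.1%, 34.8 to 59.6) and 61 (35.5%, 28.3 to 43.1), and the intervals overlapped in both lines. With the opposite gene limited to protein-coding ones the MV4-11 intervals were separate, at 18 of 24 members (75%, 53.3 to 90.2) against 93 of 216 (43.1%, 36.4 to 49.9), and the U937 ones overlapped, at 13 (54.2%, 32.8 to 74.4) and 80 (37.04%, 30.6 to 43.9). For the other genes of the chromosome the shares with and without an opposite gene of any kind were 91.3 and 65.6% in MV4-11 and 82.2 and 48.1% in U937. Members with a shared start were thus occupied less often than other genes with a shared start in both lines. The opposite gene was sought at the canonical start, while peaks at any start of the gene were counted. Some of these peaks may therefore lie away from the shared start.

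Behind the start the ZNF genes were nearly empty. A peak in the gene body, outside every promoter window of the gene, was present at 24 members (10%, 6.51 to 14.5) in MV4-11 and 13 (5.42%, 2.92 to 9.08) in U937. All protein-coding genes stood at 29.5% and 19.2%, and the other genes of chromosome 19 at 50.6% (47.8 to 53.5) and 29.1% (26.6 to 31.7). The ZNF genes of other chromosomes stood at 27.1% (21.6 to 33.3) and 12.7% (8.74 to 17.6). Their interval was apart from that of the members in MV4-11 and overlapped it in U937. Per Mb of gene body the members had 5.62 peaks in MV4-11 and 2.61 in U937, and the other genes had 53.1 and 19.1. The members with the most were ZNF787, with 6 in MV4-11 and 2 in U937, and ZNF628, with 4 and 0. ZNF577 had 3 and 1 with no promoter peak in either line, and ZNF324 had 3 and 0. ZNF653, ZNF627, ZNF574, ZNF444 and ZNF586 had 2 in each line. Promoter windows of other genes were not left out of these counts. At ZNF586 the peaks of 555 bp (MV4-11) and 857 bp (U937) were also the promoter peaks of ZNF552. The others, of 767 and 792 bp, had the widths of the ZNF587B promoter peaks. The ZNF324 peaks of 1087 and 390 bp were also promoter peaks of ZNF446. ZNF536, a regulator of neuronal differentiation and the longest member at 488696 bp, had no promoter peak and 2 gene body peaks in U937 alone (chr19:30540556-30540988 and chr19:30548432-30549442). Segments 3 and 4 had no gene body peak at a member in MV4-11.

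**Figure D4:**
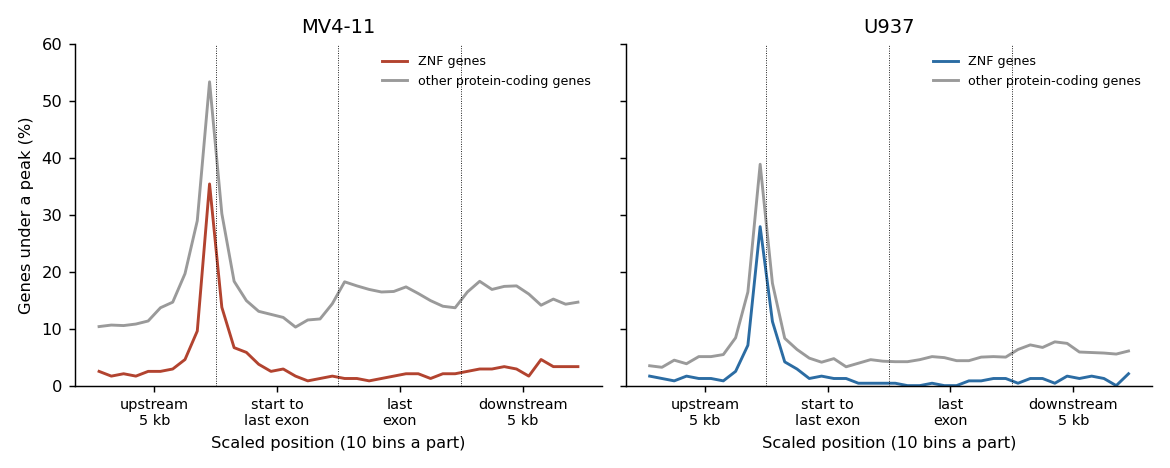
Share in % of ZNF genes (coloured) and of other chromosome 19 genes (grey) under a ZNF217 peak along 5 kb upstream, the span from start to last exon, the last exon and 5 kb downstream, each in 10 bins, with genes scaled to the same length. In the last 500 bp before the start 35.4% of ZNF genes lay under an MV4-11 peak and 27.9% under a U937 peak, and over the last exon no bin passed 2.08% and 1.25%.

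The exon that encodes the finger array rarely held a peak. Peaks over the last exon outside the promoter windows were present at 7 members (2.92%, 1.18 to 5.92) in MV4-11 and 3 (1.25%, 0.259 to 3.61) in U937, with 2 members in both. These small counts moved with the definition. With lists of equal length MV4-11 had 4 (1.67%). In U937 there were 5 (2.08%) with the last exon of any transcript or with peaks that reach a promoter window, and 2 (0.833%) with peaks of at least 400 bp. The shares of all genes with such an exon were 7.44%, 3.26% and, in both lines, 1.88%. The first lay above the members' interval, and the U937 share and that of both lines lay inside it. ZNF genes of other chromosomes stood at 8.09% (4.94 to 12.3) and 2.13% (0.694 to 4.90), and these intervals overlapped those of the members. Of 1144 other genes of the chromosome, 236 (20.6%, 18.3 to 23.1) and 89 (7.78%, 6.29 to 9.49) had such a peak. The members stood below these neighbours although the last exon was long in ZNF genes, with a median of 3354.5 bp against 739 bp. Per Mb of last exon there were 11.3 and 4.50 peaks in ZNF genes and 178 and 57.7 in the other genes. The last exons of ZNF genes were also poor in G and C, with a median GC content of 40.7% against 57.0%. The members with a peak there were those of high GC content, a median of 63.2% over the 8 against 40.5% over the rest. Among the 215 members under 50% GC none had an MV4-11 last exon peak (0 of 215, interval 0 to 1.70%) and 1 had a U937 peak, and among the 25 at or above 50% the counts were 7 (28.0%, 12.1 to 49.4) and 2 (8%, 0.984 to 26.0). The other genes gave 7 and 4 of 243 below 50%, and 229 (25.4%, 22.6 to 28.4) and 85 (9.43%, 7.61 to 11.5) of 901 at or above it. Within each GC class the intervals of ZNF genes and other genes overlapped, while over all last exons they were apart. These are shares of exons that differ in length between the groups, and peaks per Mb were not counted within a GC class. The last exons of ZNF genes also repeat more sequence. A median of 98.1% of their 50-base words occurred once on chromosome 19 (lower quartile 94.7%), against 100% (99.8%) in the other genes. The median was 98.0% over the 8 members with a peak and 98.1% over the rest. Whether repeated sequence lowered the number of called peaks was not tested.

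**Figure D5:**
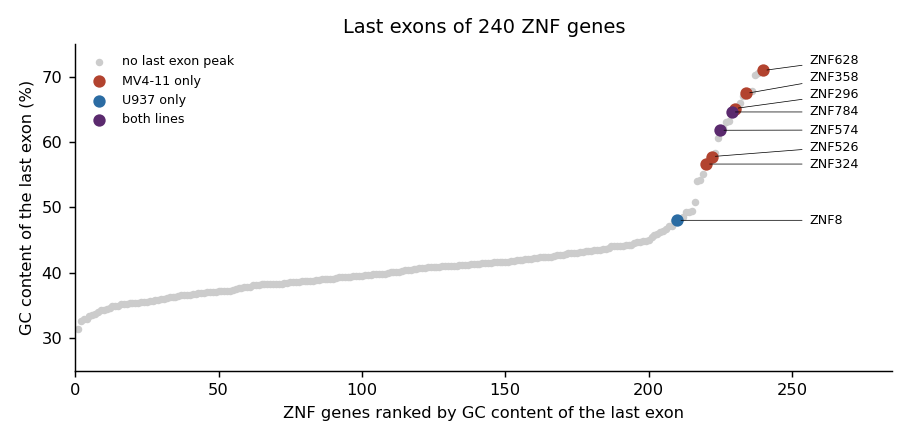
GC content in % of the last exon of the 240 ZNF genes, ranked from lowest to highest, with the 8 members that had a ZNF217 peak over that exon in colour. The 7 members with an MV4-11 peak lie between 56.6 and 70.9% GC, and ZNF8, with a U937 peak, lies at 48.0%.

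The last exon peaks were few enough to be described singly. ZNF574 had 2 in each line, of 396 and 777 bp in MV4-11 and 386 and 616 bp in U937, and the first of each touched 3 of its 18 fingers. ZNF784 had 1 in each, of 975 bp (chr19:55620372-55621347) and 857 bp (chr19:55620593-55621450), which covered no coding base. In MV4-11 alone ZNF628 had peaks of 330 and 2586 bp, the second of which came within 1 kb of the start of its neighbour NAT14. Those of ZNF324 (1087 and 390 bp) lay in noncoding sequence of the exon, near a start of ZNF446. ZNF358 had 1 of 430 bp that touched no finger, near the start of another annotated gene, and it had no promoter peak in either line. ZNF526 (375 bp) and ZNF296 (365 bp) had 1 each, the last named after its value was seen. In U937 alone ZNF8 had a peak of 345 bp over 4 of its 7 fingers. The 330 bp ZNF628 peak (chr19:55481448-55481778) was the one that touched most fingers, 5 of 16. The coding bases of 3 neighbouring fingers are given for ZNF628, from within this peak (hg38, chr19:55481473-55481703, plus strand), and for ZNF208, whose exon had no peak (hg38, chr19:21972721-21972951, minus strand), with the codons of the zinc-binding cysteines and histidines in capitals.
ZNF628: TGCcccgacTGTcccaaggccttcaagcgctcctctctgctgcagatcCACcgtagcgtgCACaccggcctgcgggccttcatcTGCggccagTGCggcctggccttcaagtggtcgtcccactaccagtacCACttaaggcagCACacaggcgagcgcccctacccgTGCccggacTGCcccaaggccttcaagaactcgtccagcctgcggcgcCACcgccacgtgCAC
ZNF208: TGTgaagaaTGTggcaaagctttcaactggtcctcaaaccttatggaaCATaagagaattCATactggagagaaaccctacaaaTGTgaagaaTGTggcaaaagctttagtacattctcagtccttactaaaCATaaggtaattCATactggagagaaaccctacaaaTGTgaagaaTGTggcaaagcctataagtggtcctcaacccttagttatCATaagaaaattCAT
Both stretches encode the same spacing of cysteines and histidines. The ZNF628 stretch had a GC content of 66.7% and 18 CG dinucleotides, and the ZNF208 stretch 37.2% and none.

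Most genes of a list made for the KRAB corepressor pathway were occupied. The list was chosen with earlier results of these data known, and it includes a zinc finger gene, ZFP57. Of its 25 genes, 22 (88.0%, 68.8 to 97.5) had a promoter peak in each line, against 59.0% and 50.5% of all protein-coding genes, and they were the same 22 (both lines, 47.4% of all genes). They included TRIM28, the corepressor itself, which lies at the end of chromosome 19 (2431 bp in MV4-11 and 954 bp in U937), SETDB1, which methylates H3K9 (471 and 1267 bp), the heterochromatin protein gene CBX3 (2256 and 2495 bp) and MORC2, a chromatin compactor (1395 and 1341 bp). Those without a peak were ZFP57, which guards imprinted loci, EHMT2, an H3K9 methyltransferase, and ATRX, a chromatin remodeller. The EHMT2 start was also present on 5 alternate sequences, and on 1 of them there was a peak in each line. The 28 zinc finger genes of chromosome 19 named otherwise (ZFP, ZSCAN, KLF, ZBTB and the like) had promoter peaks in 15 cases in MV4-11 (53.6%, 33.9 to 72.5) and 11 in U937 (39.3%, 21.5 to 59.4), and these intervals overlapped those of the 240 members.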

How the data were processed

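The submitters' processing notes and the methods name Bowtie2 2.4.4 for alignment (hg38) and MACS3 3.0, run on paired-end fragments, for peaks of single libraries. The deposited unit is other than counts or signal: a line gives a peak's chromosome, start and end. Use of the IgG libraries in peak calling was not given in the sources used here, and neither was the counting base of the start, which leaves 1 bp open in printed peak positions. Genes, starts and exons came from GENCODE 44, promoter sequences from RefSeq. A peak counted when it overlapped a feature by at least 1 bp. Per-gene values used chromosomes 1 to 22 and X, and the last exon was that of the canonical transcript. Overlap functions were tested on simulated data. The software was SciPy 1.17.1 for intervals, pandas 2.3.3 and NumPy 2.4.6 under Python 3.11.15, and Matplotlib 3.10.9 for figures. With 1 library per line no test was made, so the text gives no p-value.

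Members, lists and alternatives were chosen with earlier results of these data known. Genes were named by rule: per segment, up to 3 members of each class by peak width, summed over the lines where both had one (unoccupied ones by gene length), then members with last exon peaks (up to 6 in both lines and 4 in each line alone), the 5 with most gene body peaks per line, the widest promoter peak of each line, TRIM28 and the unoccupied genes of the corepressor list. Members of the longest runs, those tied for gene body peaks, the members with the most fingers and other corepressor genes were named after their values were seen. Alternatives were other promoter windows, 1 TSS per gene, peaks of at least 400 bp, lists of equal length, shifted segments, merged peaks, and other definitions of overlap and last exon.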

Additional observations from a re-analysis of the deposited data

How the results depend on the processing

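Of 121 values recomputed under the alternatives, 115 stayed inside the 95% interval of the reported value and 6 lay outside it. With lists of equal length the share of members with a promoter peak in MV4-11 fell to 37.5%, and 71.1% of the remaining MV4-11 member promoter peaks overlapped a U937 peak. A reciprocal overlap of 50% lowered the shared part of the member promoter peaks to 63.4% in U937 and 49.6% in MV4-11. With segments shifted by 5 Mb the highest segment share in MV4-11 was 100% and the lowest in U937 was 0%, both from a segment of 5 members. The count of values inside is a weak measure of stability, because the intervals of single segments are wide. The segment 1 share in MV4-11 fell from 80% (56.3 to 94.3) to 60% with lists of equal length and counted as inside. The other promoter windows left every member share unchanged. With 1 TSS per gene 107 and 90 members had a promoter peak, against 64.6 and 50.2% of the other genes of chromosome 19. No paired analysis was possible because each line has 1 library and no test was made. Depth is unknown, peak height is not in the lists, and a promoter without a called peak may hold signal under the threshold of the caller.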
